A study of Mus musculus with 16 samples.

Results

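RNA sequencing of frozen, powdered left ventricle was used to compare wild-type (WT) mice at 20 weeks of age with WT mice at 4 weeks, an interval that runs from shortly after weaning to adulthood. The members are all mice that the labels call WT: 8 of the 16 mice of the series, 4 at 4 weeks and 4 at 20 weeks. All are FVB/N, and the study's methods give the animals as male. Both groups were fed control chow and differ in age, 4 or 20 weeks. The other 8 mice, also 4 at each age, overexpress Gαq, a G protein subunit, under cardiac-specific control. They enter the fit that estimates the scatter between mice and, near the end, a comparison of the age effect between genotypes. The age groups are separate animals, so every difference is between mice and not within a mouse.

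In the weeks after weaning the mouse ventricle leaves its growth phase. Cardiomyocytes have by then largely stopped dividing and enlarge instead, while fibroblasts and endothelial cells still divide and lay down the collagen network and the basement membranes around the myocytes. Over the same period the heart settles into the adult pattern of contractile isoforms, ion channels and fuel use, with long-chain fatty acids as the main fuel, and the embryonic growth program of insulin-like growth factor 2 and the imprinted genes is shut down.

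Total counts in the WT libraries were 19820832, 23734932, 25122813 and 24965170 at 4 weeks and 23693067, 24176536, 25391646 and 24750467 at 20 weeks (replicates 1 to 4 in that order, as for all values per mouse). Levels are given as CPM, counts relative to the library total after scaling by trimmed mean of M values (TMM). Of 55450 genes in the table, 16786 had enough counts to be tested, and 87.4% of those had at least 10 counts in every WT mouse. The WT 4 weeks replicate 1 library stood apart from the other WT libraries before any test. Its scaling factor was 1.09, against 0.960 to 1.01 in the other 7, and the replicate pairs that included it lay farthest apart (chi-square per gene 27.0 to 37.3, against 5.86 to 18.6 in all other pairs). Its endothelial marker sum was the highest of all WT mice and its cardiomyocyte marker sum the lowest. Counts that rest on this mouse are therefore given with and without it. Sample titles carry a number that the labels do not explain and that may stand for a cage or a litter. It was 559480 (replicates 1 and 2) or 554815 (replicates 3 and 4) at 4 weeks, and 550660 (replicate 1), 444767 (replicate 2) or 551636 (replicates 3 and 4) at 20 weeks. WT mice of different age share no title number, so age cannot be told apart from what it stands for.

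The labels were checked against the data. Gnaq, which encodes Gαq, was at most 1095 CPM in the WT mice and at least 9927 CPM in the Gαq mice. Its level within WT was uneven, at 57.2, 1095, 374 and 386 CPM at 4 weeks and 275, 802, 193 and 111 CPM at 20 weeks, a ratio of 19.1 between the highest and lowest WT mouse, and the ages overlapped (log2 fold change -0.47, adjusted p 0.602). Whether all WT counts of Gnaq came from the RNA of those mice was not tested. Y-linked Ddx3y was at 114, 132, 138 and 138 CPM at 4 weeks and 143, 126, 139 and 106 CPM at 20 weeks, and Xist, expressed from the inactive X chromosome of females, was at most 0.199 CPM in any WT mouse. Cardiomyocyte transcripts dominated every library, with Myh6, the alpha myosin heavy chain, at 32831, 43447, 45905 and 40333 CPM at 4 weeks and 39659, 36771, 40378 and 32565 CPM at 20 weeks. The atrial light chain Myl7 was at 11.7, 13.6, 0.121 and 0.477 CPM at 4 weeks and 0.438, 3.75, 31.2 and 0.280 CPM at 20 weeks, highest in WT 4 weeks replicates 1 and 2 and WT 20 weeks replicate 3. Surfactant genes Sftpc and Sftpa1 had no count in any WT mouse, and neither did the mast cell receptor Fcer1a.

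Principal components of the 500 most variable genes placed the ages apart along PC1, which held 67.3% of the variance. PC1 scores were -20.1, -11.2, -8.52 and -8.16 at 4 weeks and 13.4, 11.7, 12.4 and 10.5 at 20 weeks, and did not overlap. PC2 held 12.4% of the variance, and along it the 4-week mice lay apart by title number, with scores of 7.31 and 3.80 for replicates 1 and 2 and -8.65 and -7.09 for replicates 3 and 4. The 20-week mice did not, with scores of -1.19, 1.95, 5.44 and -1.57, where replicates 3 and 4, which share a number, lay farthest apart.

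**Figure D1:**
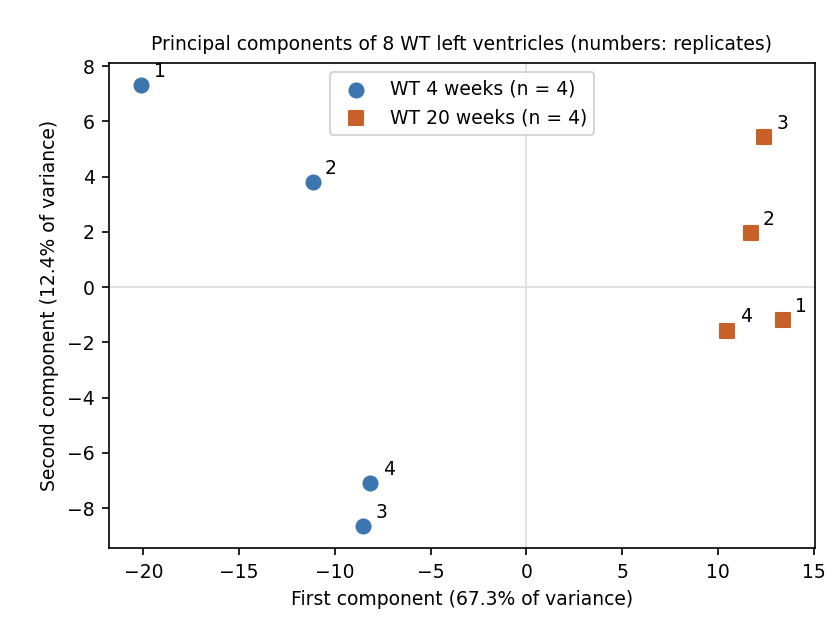
Scores of the 8 WT left ventricles on PC1 (67.3% of variance) and PC2 (12.4%) of the 500 most variable genes, from variance-stabilized values, each point a mouse numbered by replicate. On PC1 the gap between the ages is 55.7% of the range.

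Each gene was tested for age in WT mice with the edgeR quasi-likelihood F test, and a gene counts as past the test where its p-value adjusted over all 16786 genes (Benjamini-Hochberg) is under 0.05. By this rule 3857 genes differed with age, 23% of those tested: 1820 (10.8%) were higher at 20 weeks and 2037 (12.1%) were lower. Most differences were small. Of the genes past the test, 2393 (62.0%) differed by a fold under 1.5, and the median absolute log2 fold change was 0.47. Beyond 2-fold lay 673 genes, 4.01% of those tested, of which 311 (1.85%) were higher and 362 (2.16%) lower. At folds of at least 4 the balance was the other way, with 71 genes higher and 37 lower. The median log2 fold change of all tested genes was -0.01. In 3914 genes (23.3%) the values of the 4-week mice did not overlap those of the 20-week mice, and 3101 of these were also past the test. Without WT 4 weeks replicate 1 the test gave 2882 genes, 1314 higher and 1568 lower, with 2718 shared with the count from all mice.

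**Figure D2:**
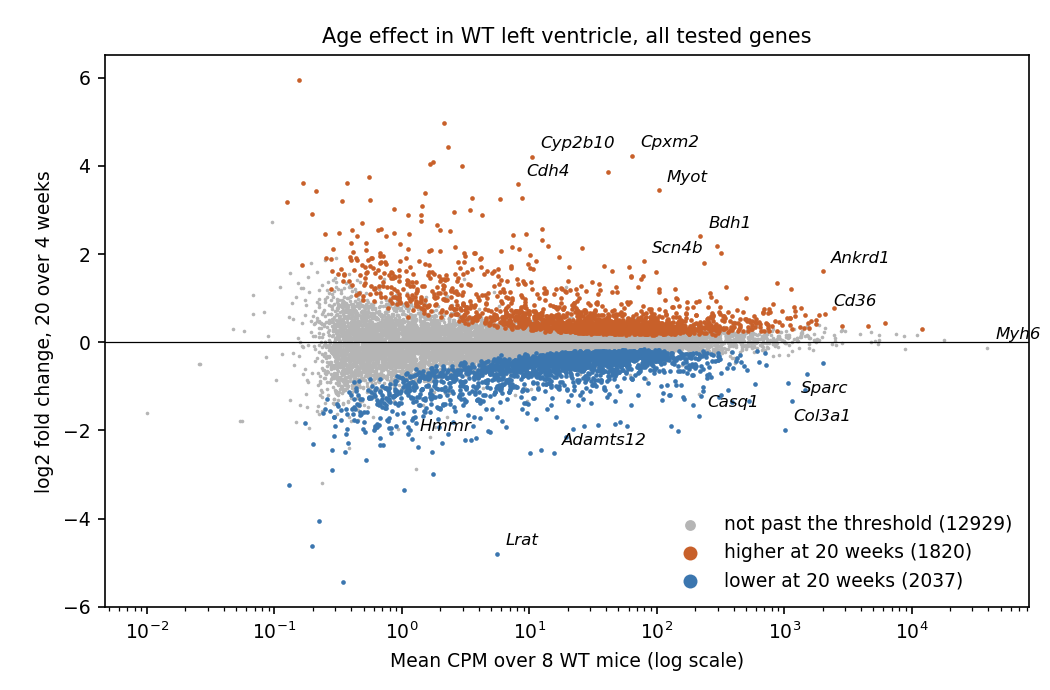
Log2 fold change (20 over 4 weeks) against the mean level over the 8 WT mice (CPM, log scale) for the 16786 tested genes, each point a gene, colored where past the test. The 1820 rises and 2037 falls spread over the whole range of levels, and Myh6 lies near 0.

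Protein-coding genes made up 13757 of the tested genes, and 25.6% of them were past the test (1608 higher, 1912 lower). Of 1195 long noncoding RNA genes 14.7% were (102 higher, 74 lower). In bulk tissue, fewer cells of a type and less RNA per cell cannot be told apart, which holds for every change given here. From here on a number in brackets after a gene is its log2 fold change, 20 over 4 weeks, and rose or fell is used only for genes past the test. A list's median is that of the log2 fold changes of its tested members. Values written as a series against another are CPM in the 4-week replicates 1 to 4 and then in the 20-week replicates 1 to 4. Where a call or a count ended or moved without several mice, each was left out alone.

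Large rises among protein-coding genes with a mean of at least 1 CPM were in genes of diverse roles. Cpxm2, a secreted protein of the carboxypeptidase family that lacks the residues for catalysis (chr7:132032687-132154739, GENCODE vM21 on GRCm38), was at 4.96, 8.50, 6.13 and 6.36 CPM at 4 weeks and 132, 140.0, 114 and 103 CPM at 20 weeks. The lowest 20-week mouse was far above the highest 4-week mouse, and the mean of 6.48 ± 1.47 CPM at 4 weeks and 122 ± 16.9 CPM at 20 weeks (SD, n = 4) corresponds to a fold of 18.8 (log2 fold change 4.23, adjusted p 7.53e-11, the smallest adjusted p of all genes). Myot, myotilin, a Z-disc protein that binds alpha-actinin and filamin (chr18:44334074-44355724), was at 5.05, 24.4, 18.2 and 21.4 CPM at 4 weeks and 229, 161, 209 and 156 CPM at 20 weeks. The groups did not overlap, and WT 4 weeks replicate 1 was lowest (log2 fold change 3.45, adjusted p 1.71e-07). Kcnc1, a fast voltage-gated potassium channel, was at 0, 0.419, 0.202 and 0.159 CPM at 4 weeks and 6.61, 5.15, 3.41 and 2.52 CPM at 20 weeks (log2 fold change 4.44, adjusted p 1.38e-05, and 4.07 to 5.08 over the alternatives). Cyp2b10, a xenobiotic-metabolizing cytochrome P450, was at 0.278, 0.712, 1.13 and 2.07 CPM at 4 weeks and 15.4, 18.1, 19.98 and 25.8 CPM at 20 weeks (log2 fold change 4.21, adjusted p 8.45e-07). In none of these 4 genes did a 4-week mouse reach a 20-week mouse.

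Other large rises were Lman1l (4.09), a lectin related to the cargo receptor of the secretory pathway, Ano5 (4.01), a membrane protein of muscle that takes part in sarcolemmal repair, Cdh4 (3.58) and Cdh22 (2.99), classical cadherins, Edn3 (3.38), the peptide endothelin 3, Pde11a (3.28), a phosphodiesterase of cyclic nucleotides, Aqp8 (3.27), a water channel, Vgll2 (3.10), a cofactor of TEAD transcription factors in muscle, and Klk1b26 (4.04), a kallikrein-family protease with near-identical copies in the mouse genome, so that its assignment of reads is less certain. Cdh4 was at 0.788, 1.80, 0.968 and 1.43 CPM at 4 weeks and 17.9, 14.0, 14.3 and 14.2 CPM at 20 weeks, without overlap. Adjusted p-values of these genes (edgeR) ran from 2.10e-08 for Lman1l to 0.00133 for Vgll2. Over the alternatives log2 fold changes ran from 3.68 to 4.88 for Ano5 and from 2.98 to 4.01 for Pde11a. They ran from 2.90 to 3.97 for Aqp8 and from 2.69 to 3.77 for Vgll2.

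Among genes with a mean of at least 1 CPM, Lrat had the largest fall. It encodes the enzyme that esterifies retinol for storage (chr3:82892579-82903973), and was at 9.27, 9.96, 10.8 and 13.3 CPM at 4 weeks and 0.438, 0.255, 0.0410 and 0.800 CPM at 20 weeks. Its level at 4 weeks was 27.8 times that at 20 weeks (log2 fold change -4.80, adjusted p 1.72e-07). Lrat had at most 20 counts in a 20-week mouse, and over the alternatives its log2 fold change ran from -5.47 to -4.42. Adamts12, a secreted metalloprotease that acts on matrix proteins (chr15:11064790-11349231), was at 32.2, 24.4, 27.0 and 22.2 CPM at 4 weeks and 5.21, 4.39, 3.73 and 5.20 CPM at 20 weeks. Every 20-week mouse was several-fold lower than any 4-week mouse (log2 fold change -2.51, adjusted p 1.71e-09), and the related protease Adamts17 fell alike (log2 fold change -2.44, adjusted p 3.12e-07). Aqp4, a water channel known from astrocyte end-feet and skeletal muscle, was at 46.9, 27.0, 24.6 and 27.6 CPM at 4 weeks and 2.54, 4.30, 13.7 and 7.60 CPM at 20 weeks (log2 fold change -2.16, adjusted p 2.49e-04). C1qtnf6, a secreted protein of the C1q and tumor necrosis factor family, was at 55.1, 61.9, 57.1 and 44.1 CPM at 4 weeks and 12.9, 12.9, 15.3 and 18.5 CPM at 20 weeks (log2 fold change -1.87, adjusted p 1.21e-08). The 4-week range of C1qtnf6 lay wholly above the 20-week range, and its adjusted p was among the 5 smallest with Cpxm2, Adamts12, Col3a1 and Col5a1.

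Further falls were Oprd1 (-2.99), the delta opioid receptor, Pnpla3 (-2.48), a lipase-family protein of lipid droplets, 2210407C18Rik (-2.38), an uncharacterized protein, Col26a1 (-2.29), a collagen, Wdr72 (-2.08), a protein known from enamel formation, and Krt19 (-2.08), a keratin of epithelia and mesothelium. Over the alternatives the log2 fold change ran from -2.82 to -1.76 for Krt19, -2.91 to -2.04 for Col26a1 and -2.97 to -2.23 for 2210407C18Rik. For Oprd1, Col26a1, Wdr72 and 3 more genes, WT 4 weeks replicates 1 and 2, which share a title number, were higher than replicates 3 and 4. Angptl7, an angiopoietin-like secreted protein, was at 24.4, 31.4, 6.89 and 6.59 CPM at 4 weeks and 2.45, 4.68, 2.46 and 2.56 CPM at 20 weeks (log2 fold change -2.50, adjusted p 0.00572). Ddc, the decarboxylase that makes dopamine and serotonin, fell likewise (log2 fold change -2.18, adjusted p 0.00357). Fbn2, fibrillin 2, a microfibril protein made mainly before and around birth, fell too (log2 fold change -2.03, adjusted p 6.19e-05). Angptl7, Ddc and Fbn2 were still lower in every 20-week mouse than in any 4-week mouse.

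**Figure D3:**
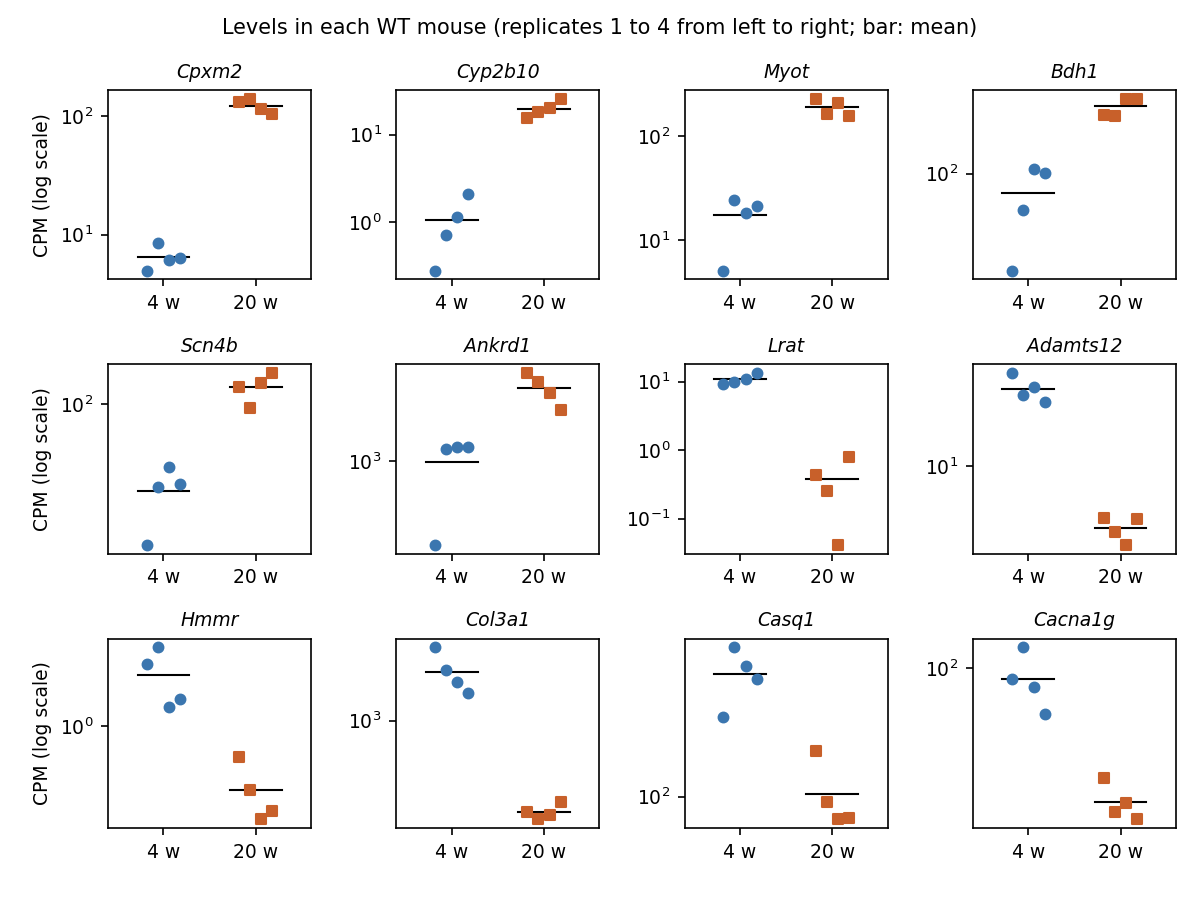
Level (CPM, log scale) of 12 genes in each WT mouse, replicates 1 to 4 from left to right at each age, with the mean as a bar. Cpxm2 goes from 4.96 to 8.50 CPM at 4 weeks to 103 to 140.0 CPM at 20 weeks, and Col3a1 from 1307 to 2048 CPM to 380.0 to 449 CPM.

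The cell cycle was followed through 3 lists: DNA replication, mitosis, and inhibitors of the cycle. The replication list also holds the transcription factors E2f1 and E2f2. Of 68 mitosis genes 0 rose, 51 fell and 17 did not pass (median -1.15), so 75.0% changed, against 12.1% falling and a median of -0.01 over all tested genes. Summed over the list the level was 351, 342, 268 and 229 against 180.5, 190.3, 167 and 193 CPM. All 20-week sums were under all 4-week sums, and replicates 1 and 2 at 4 weeks were above replicates 3 and 4. Hmmr, a receptor for hyaluronan that also binds the mitotic spindle, fell most, from 2.27, 2.85, 1.29 and 1.43 to 0.657, 0.426, 0.287 and 0.320 CPM (log2 fold change -2.20, adjusted p 6.35e-05). Its values did not overlap, though every mouse was below 3 CPM. Other falls were Kif2c (-1.89), a kinesin that depolymerizes microtubules at centromeres, Troap (-1.82), a spindle protein, Kif14 (-1.79), a kinesin of cytokinesis, Top2a (-1.40), the topoisomerase of dividing cells, and Mki67 (-1.27), the Ki-67 antigen. Over the alternatives the log2 fold change of Kif2c ran from -2.68 to -1.52. The centromeric histone Cenpa did not pass (log2 fold change -0.05, adjusted p 0.781), and was the list's gene with most reads. Over the left-out mice the count of falls ran from 38 to 53, and it was 39 without WT 4 weeks replicate 1.

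Of 47 DNA replication genes 0 rose, 4 fell and 43 did not pass (median -0.19), against 12.1% falling over all tested genes. Summed over the list the level was 349.9, 377, 263 and 264 against 253, 276, 266 and 312 CPM, and the ages overlapped. Rrm2, the inducible subunit of ribonucleotide reductase, which makes deoxyribonucleotides, fell from 5.79, 6.03, 5.08 and 3.69 to 2.23, 2.597, 2.13 and 2.44 CPM (log2 fold change -1.13, adjusted p 2.56e-04). Pcna, the sliding clamp of DNA polymerases, did not pass (log2 fold change 0.08, adjusted p 0.603). The other 3 calls, E2f1, E2f2 and Lig1, each ended when WT 4 weeks replicate 1 or 2 or WT 20 weeks replicate 1 or 3 was left out. Those of E2f2 and Lig1 also ended without WT 20 weeks replicate 2 or with limma-voom or from the WT mice alone. That of Lig1 ended as well without WT 20 weeks replicate 4 or with RLE scaling. The count of falls, 4 from all mice, became 1 without WT 4 weeks replicates 1 or 2 or WT 20 weeks replicates 1 or 3, 2 without WT 20 weeks replicate 2, 7 without WT 4 weeks replicate 4 and 9 without WT 20 weeks replicate 4. Among 17 cell cycle inhibitors 1 rose, 6 fell and 10 did not pass (median -0.07). Gadd45b, a stress-induced regulator of growth arrest, rose (log2 fold change 0.96, adjusted p 9.77e-05), and its relative Gadd45a (-0.47) and the atypical cyclin Ccng2 (-0.45) fell. The list's gene with most reads, Ccng1, did not pass (log2 fold change 0.20, adjusted p 0.103), and Cdkn2a was too low to test, at most 0.556 CPM.

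Genes that are expressed late in the cell cycle often carry CCAAT boxes and a cell cycle homology region (CHR) near their start, and those of DNA replication often carry E2F sites. The promoter sequences of RefSeq (GRCm38.p6, 250 bases before to 50 after the start) were searched on either strand for the CCAAT box, for the CHR TTTGAA and for the E2F form TTTSSCGC, where S is C or G. Of all 32851 promoters 37.4% held CCAAT, 17.9% held CHR, 6.95% held both and 2.27% held an E2F form. A match is a description of the sequence and not of binding. For the mitosis list 56 of 68 genes matched, with 60 promoters, of which 73.3% held CCAAT, 68.3% held CHR, 58.3% held both and 5.0% held E2F. Among the 43 promoters of mitosis genes that fell, 79.1% held CCAAT, 81.4% CHR and 69.8% both, and among the 17 promoters of the other mitosis genes the shares were 58.8%, 35.3% and 29.4%. For DNA replication 38 of 47 genes matched, with 44 promoters, of which 56.8% held CCAAT, 13.6% CHR, 11.4% both and 38.6% E2F.

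The promoters of 3 genes that fell are printed because they hold both motifs of the mitosis list, with CCAAT and CHR in capitals on whichever strand they lie: Hmmr at chr11:40733388-40733687 (minus strand), Ncapg, a condensin subunit, at chr5:45669675-45669974 (plus strand), and Prc1, which bundles microtubules of the central spindle, at chr7:80294201-80294500 (plus strand). Log2 fold changes were -1.55 for Ncapg and -1.52 for Prc1.
Hmmr: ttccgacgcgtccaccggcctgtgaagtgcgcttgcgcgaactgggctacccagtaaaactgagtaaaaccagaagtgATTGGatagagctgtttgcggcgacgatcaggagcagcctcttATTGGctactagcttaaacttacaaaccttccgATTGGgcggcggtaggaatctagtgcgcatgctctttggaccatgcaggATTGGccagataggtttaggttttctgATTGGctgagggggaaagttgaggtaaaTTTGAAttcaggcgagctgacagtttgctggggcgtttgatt
Ncapg: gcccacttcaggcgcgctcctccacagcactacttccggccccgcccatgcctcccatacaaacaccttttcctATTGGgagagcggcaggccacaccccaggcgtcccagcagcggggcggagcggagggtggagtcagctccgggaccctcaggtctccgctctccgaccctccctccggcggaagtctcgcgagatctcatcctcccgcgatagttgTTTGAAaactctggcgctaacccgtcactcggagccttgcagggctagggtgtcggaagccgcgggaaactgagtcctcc
Prc1: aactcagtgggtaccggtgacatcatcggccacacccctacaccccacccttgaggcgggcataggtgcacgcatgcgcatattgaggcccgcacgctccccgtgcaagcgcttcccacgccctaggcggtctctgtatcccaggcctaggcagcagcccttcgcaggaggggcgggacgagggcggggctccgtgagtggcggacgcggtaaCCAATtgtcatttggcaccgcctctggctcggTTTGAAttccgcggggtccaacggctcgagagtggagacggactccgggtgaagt

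Extracellular matrix genes were counted in several lists, against 12.1% falling over all tested genes. Fibroblast markers fell beside them, and their part in these falls was not tested: of 14 markers 0 rose, 12 fell and 2 did not pass (median -0.60), with sums of 9622, 7101, 6092 and 6321 against 4417, 4051, 3650.4 and 4120.1 CPM. These fibroblast falls became 7 without WT 4 weeks replicate 1. The markers are not independent of the matrix lists, which also hold Col1a1, Col1a2, Col3a1, Dcn, Lum, Mfap5 and Lamb1. Fibrillar collagens, type I, III and V, form the tensile fibers between myocytes and are trimmed and crosslinked by the enzymes counted with them. Of 30 such genes 1 rose, 20 fell and 9 did not pass (median -0.53), and the summed level was 5856, 5315, 4602 and 4046 against 2358, 2343, 2249 and 2221 CPM. The lowest 4-week sum was well above the highest 20-week sum. Col3a1, the chain of type III collagen, was at 2048, 1643, 1462 and 1307 against 408, 380.0, 398 and 449 CPM (log2 fold change -1.98, adjusted p 1.07e-08). Col1a1, a chain of type I collagen, was at 659, 677, 485 and 408 against 213, 216, 245 and 204 CPM (log2 fold change -1.35, adjusted p 1.33e-06), and its partner Col1a2 fell alike (-1.34). Col5a1, which sets fibril diameter, fell as well (-1.43), as did Loxl2 (-1.18) and Lox (-0.76), the crosslinking lysyl oxidases. P4ha1, a subunit of the prolyl hydroxylase that stabilizes the triple helix, was the only member to rise, from 69.0, 76.4, 75.9 and 69.4 to 117, 116, 111 and 99.7 CPM (log2 fold change 0.61, adjusted p 2.87e-04).

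Basement membranes wrap each myocyte and capillary with type IV collagen, laminins, nidogens and perlecan. Of 23 genes 0 rose, 18 fell and 5 did not pass (median -0.88). The summed level was 11588, 11136, 11666 and 10015 against 6248, 6030.4, 5948 and 5899 CPM, with no overlap. Sparc, a secreted collagen-binding glycoprotein, was at 1905, 1653, 1579.6 and 1473 against 627, 636, 573 and 770.1 CPM (log2 fold change -1.34, adjusted p 2.39e-07). Hspg2, perlecan, the heparan sulfate proteoglycan, was at 1965, 1898, 2019.7 and 1660.4 against 1219.8, 1201, 1130.0 and 1037 CPM (log2 fold change -0.72, adjusted p 1.10e-04). The type IV chains Col4a3 (-1.74) and Col4a4 (-1.37) fell, as did the ubiquitous chains Col4a1 (-1.07) and Col4a2 (-0.92). Without WT 4 weeks replicate 1 these values were -1.58, -1.24, -1.09 and -0.95, and differences between the chains were not tested. Col18a1, the source of endostatin, fell by 1.25 on the log2 scale. Of 43 other matrix proteins 0 rose, 23 fell and 20 did not pass (median -0.51). Eln, elastin, was at 353, 188, 208 and 195 against 54.4, 78.9, 42.1 and 57.4 CPM (log2 fold change -2.02, adjusted p 4.06e-06), and Col14a1, a fibril-associated collagen, at 97.03, 81.4, 61.3 and 55.1 against 20.1, 22.4, 22.6 and 16.1 CPM (log2 fold change -1.86, adjusted p 4.59e-07). In each of these genes the lowest 4-week mouse was above the highest 20-week mouse, as it was for Mfap4, a microfibril protein (-1.96). Dcn, decorin, the small proteoglycan that coats collagen fibrils, did not pass (log2 fold change -0.30, adjusted p 0.169).

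Matrix proteases and their inhibitors were mixed: of 20 genes 3 rose, 6 fell and 11 did not pass (median -0.09). Mmp2, gelatinase A, fell from 262, 201, 184 and 175 to 111, 107, 106 and 95.8 CPM (log2 fold change -0.97, adjusted p 1.42e-05), without overlap and together with its activator Mmp14 (-0.72), the membrane-bound Mmp15 (-0.55) and Mmp16 (-1.46). Gelatinase B, Mmp9, rose at low level (1.11), and the inhibitor Timp3 did not pass (log2 fold change 0.22, adjusted p 0.217). Timp1, another inhibitor, was called as higher (1.02), but WT 20 weeks replicates 3 and 4 carried the difference, and the call ended without WT 4 weeks replicates 1, 3 or 4 or WT 20 weeks replicates 3 or 4 or with limma-voom or from the WT mice alone. Without WT 4 weeks replicate 1 the falls were 19 for collagens and their assembly, 16 for basement membrane, 19 for other matrix proteins and 6 for proteases.

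Growth genes of fetal and newborn life include RNA-binding proteins and secreted growth factors that are high before birth and decline after it. Of 26 tested genes (30 on the list), 1 rose, 12 fell and 13 did not pass (median -0.45), against 12.1% falling over all tested genes. Mest, an imprinted hydrolase-like protein expressed from the paternal allele, was at 55.7, 43.1, 35.8 and 36.3 against 10.4, 11.5, 10.1 and 13.5 CPM (log2 fold change -1.91, adjusted p 2.17e-07). Nrep, a small neuronal and mesenchymal protein, fell too (log2 fold change -1.81, adjusted p 2.10e-08). Igf2bp3, an oncofetal RNA-binding protein, had 64 counts in the 4-week mice together and 1 count in the 20-week mice together, a ratio of 64.1 per library size with an exact 95% interval of 11.1 to 2573, which covers counting error only. Mdk, the growth factor midkine, fell (-1.40). Tmsb4x, thymosin beta 4, did not pass (log2 fold change -0.35, adjusted p 0.252). Lin28a had no count in WT mice and Hmga2 at most 0.0463 CPM. The rise of Tuba1c, an alpha-tubulin (0.44), ended without WT 4 weeks replicate 4 or with total counts.

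Imprinted genes are expressed from the allele of a single parent, and many of them regulate growth before and after birth. Of 24 tested genes (30 on the list), 1 rose, 13 fell and 10 did not pass (median -0.38), against 12.1% falling over all tested genes. Peg3, a paternally expressed zinc finger protein, was at 60.5, 54.2, 46.6 and 53.3 against 24.6, 26.0, 21.5 and 29.2 CPM (log2 fold change -1.08, adjusted p 1.82e-07). Impact, a paternally expressed regulator of translation, rose from 19.3, 21.6, 21.5 and 26.4 to 50.5, 45.1, 45.01 and 48.5 CPM (log2 fold change 1.09, adjusted p 1.82e-07). Both genes were without overlap and kept their calls under every alternative. Igf2, insulin-like growth factor 2, was at 22.9, 6.45, 5.04 and 7.19 against 2.63, 4.002, 1.44 and 2.92 CPM, highest in WT 4 weeks replicate 1 (log2 fold change -1.91, adjusted p 0.00433, and -1.18 without that mouse). Plagl1, a zinc finger regulator of that network, was also highest in that mouse, at 29.4, 10.3, 8.95 and 13.2 against 4.42, 7.66, 6.85 and 6.76 CPM, and its call (-1.26) ended without it. Gnas, the stimulatory G protein locus and the list's gene with most reads, did not pass (log2 fold change -0.02, adjusted p 0.865). The 13 falls became 6 without WT 4 weeks replicate 1. Of 22 tested genes of insulin-like growth factor and growth hormone signalling 0 rose, 9 fell and 13 did not pass (median -0.36). Irs1, the adaptor of the insulin and IGF receptors, fell (log2 fold change -0.67, adjusted p 4.06e-04), and so did Htra1, a protease that cleaves IGF-binding proteins (-0.62). Igf1 itself fell (-0.47), a call that ended without WT 4 weeks replicates 1 or 2 or WT 20 weeks replicates 1, 2 or 3 or from the WT mice alone. The call of Igfbp3 (-0.86) rested on WT 4 weeks replicate 1, at 82.9 CPM against 25.7 to 41.1 in the other 4-week mice, and ended without any of WT 4 weeks replicates 1 or 2 or WT 20 weeks replicates 1, 2, 3 or 4 or with DESeq2 or limma-voom or from the WT mice alone.

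The contractile apparatus showed small changes in its main chains and larger ones at the Z-disc, where thin filaments are anchored. Of 16 thick filament genes 2 rose, 0 fell and 14 did not pass (median 0.20), of 16 thin filament genes 4 rose, 3 fell and 9 did not pass (median 0.15), and of 17 Z-disc genes 11 rose, 0 fell and 6 did not pass (median 0.47). Over all tested genes 10.8% rose and 12.1% fell. Myl2, the ventricular regulatory light chain, was at 4777, 5146, 5042 and 5984 against 7566, 7899, 6552 and 6432 CPM (log2 fold change 0.44, adjusted p 0.00652). Myh6 (-0.12), Actc1, cardiac alpha-actin (0.17), and Actn2, alpha-actinin (0.17), did not pass (adjusted p 0.618, 0.398 and 0.450). Acta1, skeletal alpha-actin, rose from 130.4, 513, 781 and 562 to 1596, 1196, 1026 and 1191 CPM (log2 fold change 1.33, adjusted p 0.00792), with WT 4 weeks replicate 1 lowest. Ankrd1, a titin-binding ankyrin repeat protein that also enters the nucleus, was at 279.6, 1193, 1237 and 1230.1 against 3805, 3319, 2796 and 2177 CPM (log2 fold change 1.62, adjusted p 0.00107). In both genes the groups did not overlap. Fhl1, a LIM protein that binds titin, rose too (log2 fold change 1.11, adjusted p 7.22e-06). Xirp2, an actin-binding repeat protein (1.20), Lmod2, which lengthens thin filaments (0.68), Tnnc1, cardiac troponin C (0.37), Flnc (0.76), filamin C, and Cryab (0.78), the chaperone alpha B-crystallin, also rose. Rises became 1 without WT 4 weeks replicates 1 or 2 or WT 20 weeks replicates 1 or 2 for the thick filament, and falls became 0 without WT 20 weeks replicate 4 and 1 without WT 4 weeks replicates 3 or 4 or WT 20 weeks replicates 2 or 3 for the thin filament. Z-disc rises ran from 9 to 12 over the left-out mice and were 9 without WT 4 weeks replicate 1.

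Isoform pairs were compared per kilobase of exon, as the share of the less abundant or less mature member. Myh7, the beta myosin heavy chain of the fetal and the stressed ventricle, made up 2.95, 3.10, 2.96 and 3.03% against 4.39, 4.53, 4.10 and 3.82% of Myh6 and Myh7 together. The share was higher in every 20-week mouse, although Myh7 alone overlapped and did not pass (log2 fold change 0.38, adjusted p 0.127). Acta1 made up 1.63, 4.46, 6.72 and 5.69% against 13.3, 9.64, 7.99 and 10.3% of the striated actins, again without overlap. Mean shares of Ckb, the brain-type creatine kinase, against Ckm were 2.33% at 4 weeks and 1.78% at 20 weeks, lower in every 20-week mouse. For Cox7a2, a widely expressed cytochrome oxidase subunit, against its heart and muscle form Cox7a1 the shares in each mouse were 26.2, 25.7, 24.7 and 25.4% against 24.6, 24.1, 23.1 and 23.004%. For Cpt1a, the liver form of carnitine palmitoyltransferase, against Cpt1b they were 84.3, 73.9, 71.6 and 73.0% against 65.5, 68.4, 63.0 and 69.3%. That pair has a limit, since Cpt1b overlaps its neighbor Chkb and had only 2.83 CPM per kb at 4 weeks. The troponins Tnni1 and Tnnt1 were minor at both ages, with mean shares of 0.00423% and 0.00101% for Tnni1 and 0.580% and 0.417% for Tnnt1, lower at 20 weeks without overlap. Tnni1 had at most 11 counts in a WT mouse, and its call ended without WT 4 weeks replicate 2 or WT 20 weeks replicates 2, 3 or 4 or with no filter. Tnnt1 alone overlapped between ages. Its call ended without WT 4 weeks replicates 1, 3 or 4 or WT 20 weeks replicates 2, 3 or 4 or with limma-voom or from the WT mice alone. For Myl7, Myl4, Cox6a1, Cox8a, Slc25a5, Slc2a1 and Hk1 against their partners Myl2, Myl3, Cox6a2, Cox8b, Slc25a4, Slc2a4 and Hk2 the shares overlapped between ages.

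Genes that mark the immature or the stressed ventricle are usually read together, but here they split. Of 24 genes 4 rose, 8 fell and 12 did not pass (median 0.00), against 10.8% rising and 12.1% falling over all tested genes. Nppb, B-type natriuretic peptide, rose from 18.8, 101, 221 and 159 to 636, 899, 221 and 279.6 CPM, with the ages in overlap at replicate 3 of each (log2 fold change 2.02, adjusted p 0.00638). Nppa, atrial natriuretic peptide, did not pass (log2 fold change 0.35, adjusted p 0.567). Cacna1g, a T-type calcium channel of the fetal ventricle and of pacemaker tissue, fell from 91.5, 118, 86.2 and 69.3 to 41.1, 31.3, 33.7 and 29.5 CPM (log2 fold change -1.43, adjusted p 1.95e-05). Kcne1, an accessory subunit of the slow delayed rectifier, fell (-1.40), as did Acta2, smooth muscle actin (log2 fold change -1.24, adjusted p 5.86e-04). Falls on this list became 5 without WT 20 weeks replicates 3 or 4.

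Calcium handling genes couple excitation to contraction. Of 36 genes 4 rose, 7 fell and 25 did not pass (median 0.05), against 10.8% rising and 12.1% falling over all tested genes. Casq1, the skeletal muscle form of calsequestrin, fell from 215, 425, 353 and 313 to 155, 94.8, 80.2 and 81.0 CPM (log2 fold change -1.67, adjusted p 1.58e-05). The 4-week and 20-week ranges were apart. Other falls were Cacna1d, an L-type calcium channel of pacemaker cells (-0.89), Bin1, which shapes T-tubules (-0.53), and Itpr1 (-0.34), the inositol trisphosphate receptor. Cmya5, a protein that holds the junctional reticulum at the Z-disc, rose (log2 fold change 0.59, adjusted p 0.00420). S100a1, a calcium sensor that binds SERCA and the ryanodine receptor (0.53), and Camk2b, a calmodulin kinase isoform (0.65), also rose. Atp2a2, the calcium pump SERCA2 and the list's gene with most reads, was at 15623, 18488, 19202 and 17060.0 against 17577, 16791, 20838 and 17440.0 CPM (log2 fold change 0.05, adjusted p 0.840) and did not pass.

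Sodium and potassium channels and pumps set the action potential. Of 32 genes 5 rose, 6 fell and 21 did not pass (median -0.02), against 23% past the test over all genes. Scn4b, a beta subunit of the cardiac sodium channel (chr9:45138395-45154152), rose from 17.8, 36.3, 46.4 and 37.4 to 123, 95.2, 129.9 and 147 CPM (log2 fold change 1.84, adjusted p 1.89e-04). Hcn2, a pacemaker channel, fell (log2 fold change -0.83, adjusted p 4.02e-04). Kcna4, which carries a transient outward current, fell (-1.07), and Fxyd5, a regulator of the sodium pump, rose (0.63). The count of rises was 8 without WT 4 weeks replicate 3, and 9 with DESeq2. Intercalated discs and costameres tie myocytes to each other and to the matrix, and of their 32 genes 2 rose, 7 fell and 23 did not pass (median -0.09), against the same 23%. Nrap, which links actin to the disc, rose from 573, 1049, 1006 and 847 to 1856, 1510.4, 1453 and 1257 CPM (log2 fold change 0.81, adjusted p 0.00278). Parva, an adaptor of integrin signalling (-0.44), Tjp1, the scaffold zonula occludens 1 (-0.34), and Gjc1, connexin 45 (-0.33), fell, and Des, desmin, did not pass (log2 fold change 0.32, adjusted p 0.109). Rises here became 1 without WT 4 weeks replicate 1 or WT 20 weeks replicates 1, 2 or 3.

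**Figure D4:**
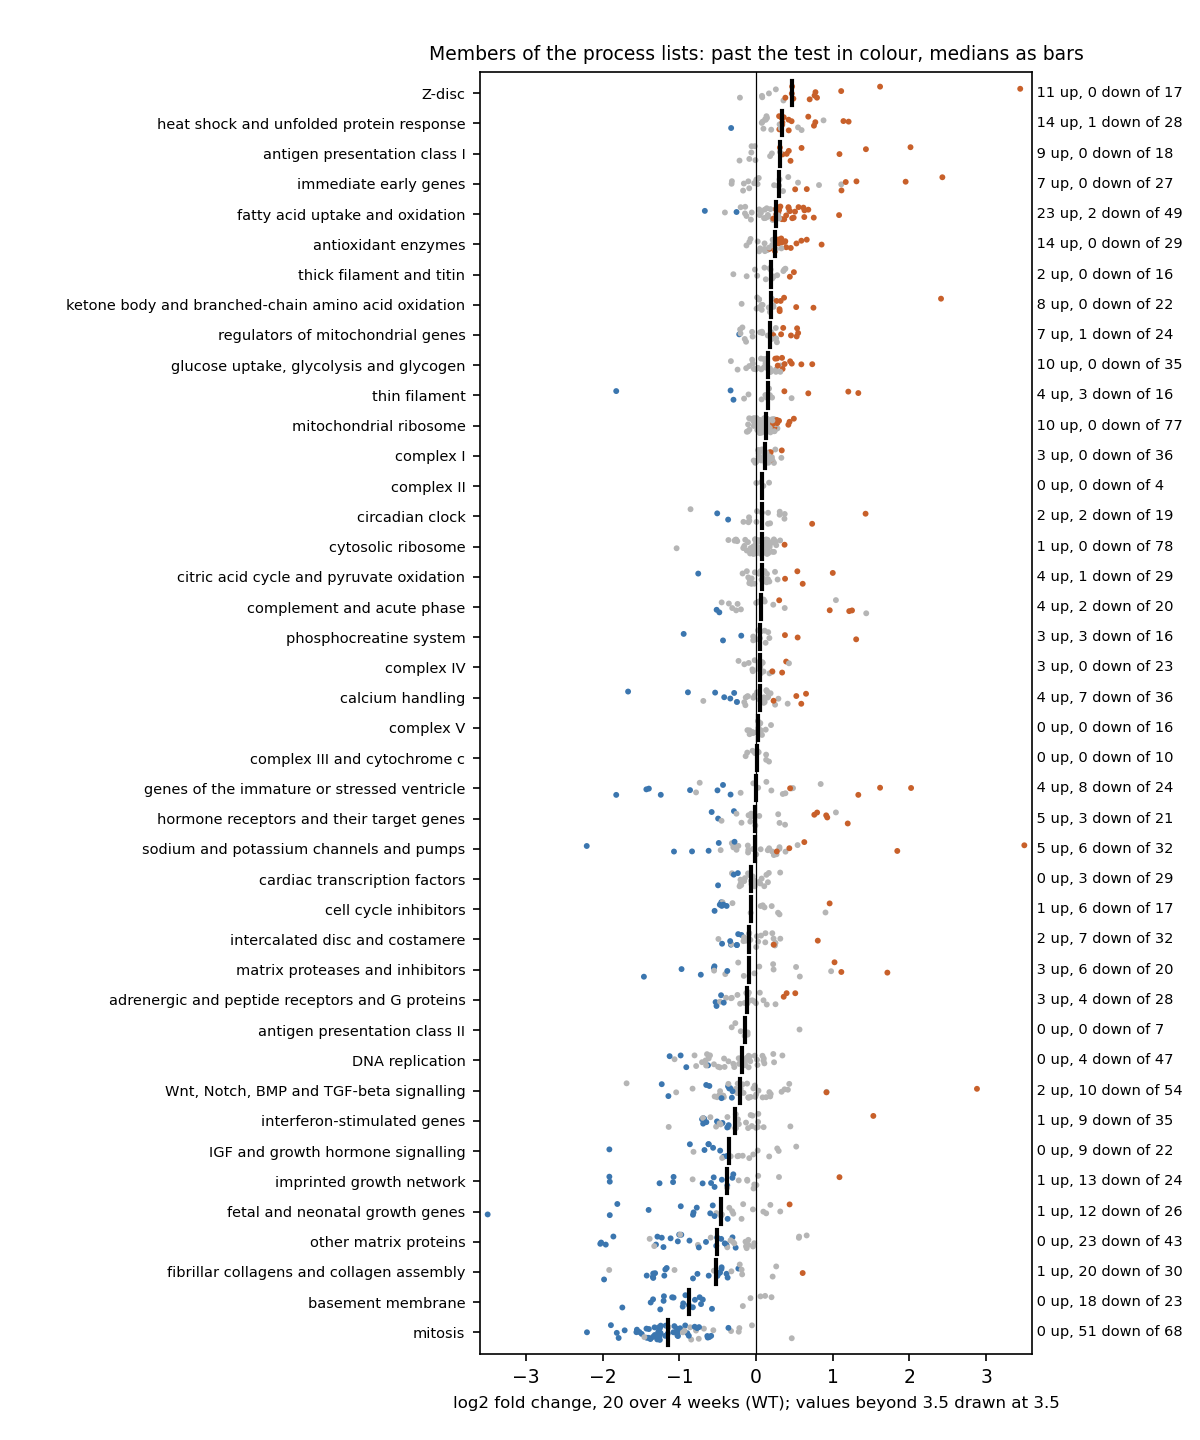
Log2 fold change (20 over 4 weeks) in WT mice of every tested member of 42 process lists, the ribosomal protein lists among them, each point a gene, colored where past the test, with the median as a bar. Mitosis (median -1.15), basement membrane (-0.88) and collagens (-0.53) lie lowest and the Z-disc (0.47) highest.

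Fatty acid oxidation supplies most of the adult heart's energy. Of 49 genes of fatty acid uptake and oxidation 23 rose, 2 fell and 24 did not pass (median 0.26), and 51.0% were past the test, against 23% of all genes. The summed level was 17128, 21095, 21982 and 22378 against 26191, 25800.1, 28082 and 25432 CPM, with every 20-week mouse above every 4-week mouse. Cd36, the main fatty acid transporter of the myocyte membrane, rose from 1364, 1638, 1691 and 1864 to 2483, 2360.4, 2746 and 2574 CPM (log2 fold change 0.63, adjusted p 8.20e-05). Acad11, an acyl-CoA dehydrogenase, rose (log2 fold change 0.68, adjusted p 6.63e-04). The ages overlapped in neither gene. Acsl6, an acyl-CoA synthetase (1.08), Acot2, a mitochondrial thioesterase (0.75), Hadhb (0.62), of the trifunctional protein, and Fabp3 (0.56), the heart fatty acid binding protein, rose too, and Cpt1c, a form of neurons, fell (-0.67). Lpl, lipoprotein lipase, the list's gene with most reads, rose slightly (log2 fold change 0.37, adjusted p 0.0285), a call that ended without WT 4 weeks replicate 1 or WT 20 weeks replicates 1 or 3 or from the WT mice alone. Rises became 15 without WT 4 weeks replicate 1 or WT 20 weeks replicate 3, and falls became 1 without WT 20 weeks replicates 3 or 4 and 5 with total counts.

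Ketone bodies and branched-chain amino acids are further fuels. Of 22 genes 8 rose, 0 fell and 14 did not pass (median 0.20), against 10.8% rising over all tested genes. Bdh1, the mitochondrial enzyme that oxidizes beta-hydroxybutyrate (chr16:31422280-31458901), was at 15.3, 49.9, 109 and 101 against 313, 306, 426 and 423 CPM. At 4 weeks replicates 1 and 2 were below replicates 3 and 4, with replicate 1 lowest, and all were below the 20-week mice (log2 fold change 2.41, adjusted p 2.35e-04). Bckdha, a subunit of the branched-chain ketoacid dehydrogenase (0.52), and Acadsb (0.37), a dehydrogenase of short branched chains, rose. Oxct1, the enzyme that activates ketone bodies, did not pass (log2 fold change 0.18, adjusted p 0.269). Rises became 5 without WT 20 weeks replicate 1. Of 35 tested genes of glucose uptake, glycolysis and glycogen 10 rose, 0 fell and 25 did not pass (median 0.16). Ugp2, which makes UDP-glucose for glycogen, rose from 209.5, 346, 363 and 354 to 576, 571, 478 and 491 CPM (log2 fold change 0.73, adjusted p 7.27e-04), and Ldhd, the D-lactate dehydrogenase, rose (log2 fold change 0.59, adjusted p 1.46e-05). Aldoa, the muscle aldolase, did not pass (log2 fold change 0.26, adjusted p 0.125). The 10 rises on this list became 3 without WT 4 weeks replicate 1, 4 without WT 20 weeks replicate 3, 5 without WT 20 weeks replicate 2 and 6 without WT 20 weeks replicate 1.

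Respiratory chain genes counted here, subunits and some assembly factors, are all encoded in the nucleus. Over all tested genes 10.8% rose and 12.1% fell. Of 36 complex I genes 3 rose, 0 fell and 33 did not pass (median 0.11); of 4 complex II genes 0 rose, 0 fell and 4 did not pass (median 0.08). Complex III and cytochrome c had 10 genes, of which 0 rose, 0 fell and 10 did not pass (median 0.02). Complex IV had 23, of which 3 rose, 0 fell and 20 did not pass (median 0.05), and complex V had 16, of which 0 rose, 0 fell and 16 did not pass (median 0.03). The complex IV rises were the subunit Cox6a2 and the assembly factors Cox17 (0.34) and Surf1 (0.21). Cox6a2, the heart and muscle form of a cytochrome oxidase subunit, was at 783, 757, 819 and 962 against 1180.4, 1180.1, 1050.1 and 951 CPM (log2 fold change 0.39, adjusted p 0.00698), where 4-week replicate 4 was above 20-week replicate 4. Ndufb3, an accessory subunit of complex I, rose without overlap (log2 fold change 0.34, adjusted p 0.00977). Atp5b, the catalytic beta subunit of ATP synthase, did not pass (log2 fold change -0.04, adjusted p 0.807). Complex I rises became 1 without WT 4 weeks replicate 2 or WT 20 weeks replicates 1 or 4 and 8 without WT 4 weeks replicate 4. Complex IV rises became 1 without WT 4 weeks replicate 2 or WT 20 weeks replicates 1 or 2. With total counts in place of TMM the rises were 1 for complex I and 1 for complex IV, and with DESeq2 those of complex I were 7.

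The citric acid cycle feeds these complexes, and of 29 genes of it and of pyruvate oxidation 4 rose, 1 fell and 24 did not pass (median 0.07). On this list 17.2% were past the test, against 23% of all tested genes (10.8% rising, 12.1% falling). Idh2, the NADP-linked isocitrate dehydrogenase, was at 984, 1218, 1209.7 and 1226 against 1781, 1839, 1848 and 1607 CPM (log2 fold change 0.61, adjusted p 1.08e-04), and the groups were apart. Pdk1, a kinase that shuts pyruvate dehydrogenase (0.54), and Suclg2, a subunit of succinyl-CoA ligase (0.38), also rose, and Pdk3 fell (-0.75). Pdk4, the kinase induced by fasting and fatty acids, rose with an adjusted p of 0.0118, a call that ended without WT 20 weeks replicate 1. Of 24 regulators of mitochondrial genes 7 rose, 1 fell and 16 did not pass (median 0.18). Perm1, a muscle factor that promotes oxidative genes, rose from 269.9, 403, 429 and 359 to 550.2, 579.8, 492 and 489.5 CPM (log2 fold change 0.53, adjusted p 0.00544), with Esrrb, an estrogen-related receptor (0.46), Tfb2m, a mitochondrial transcription factor (0.54), and Nampt, which makes a precursor of NAD (0.55). The call of the gene that fell, Ppard (-0.22), ended without WT 4 weeks replicates 2, 3 or 4 or WT 20 weeks replicates 2, 3 or 4 or with RLE scaling or no filter or from the WT mice alone. The phosphocreatine system shuttles high-energy phosphate, and of its 16 genes 3 rose, 3 fell and 10 did not pass (median 0.06). Slc6a8, the creatine transporter, rose (log2 fold change 0.54, adjusted p 0.00379), and Gatm, the enzyme that begins creatine synthesis, fell (-0.94). Ckb fell (-0.43), and Slc25a4, the ATP/ADP carrier, did not pass (log2 fold change 0.05, adjusted p 0.723).

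Ribosomal protein genes were counted by symbol. Of 77 tested genes of the mitochondrial ribosome 10 rose, 0 fell and 67 did not pass (median 0.13), against 10.8% rising over all tested genes. Mrpl14 rose most (log2 fold change 0.49, adjusted p 0.00122), followed by Mrpl28 (0.44). These 10 rises became 5 without WT 4 weeks replicate 1 or WT 20 weeks replicate 3, 6 without WT 4 weeks replicate 2 and 16 without WT 4 weeks replicate 4. They were 3 with total counts in place of TMM and 17 with DESeq2. Of 78 tested genes of the cytosolic ribosome 1 rose, 0 fell and 77 did not pass (median 0.08), that rise being Rpl15 (log2 fold change 0.37, adjusted p 0.00416). Near-identical processed copies of ribosomal protein genes make their read assignment uncertain.

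Thyroid hormone and glucocorticoids drive much of cardiac maturation after birth. Of 21 hormone receptors and their target genes 5 rose, 3 fell and 13 did not pass (median -0.01). Thrsp, a thyroid-responsive gene of lipid synthesis, rose from 30.0, 40.6, 40.2 and 50.3 to 69.0, 77.1, 59.0 and 99.0 CPM (log2 fold change 0.92, adjusted p 6.52e-04). Hsd11b1, which regenerates active glucocorticoid, rose (0.93), and Thra, thyroid receptor alpha (-0.29), and Hr, a corepressor induced by thyroid hormone (-0.58), fell. The call of Mt2, a metallothionein (1.20), rested on WT 20 weeks replicates 3 and 4, at 46.8 and 24.5 CPM, and ended without WT 4 weeks replicates 1 or 3 or WT 20 weeks replicate 3 or with limma-voom or from the WT mice alone. Of 19 circadian clock genes 2 rose, 2 fell and 15 did not pass (median 0.08), so 21.1% were past the test, against 23% of all genes. Ciart, a repressor of the clock, rose from 2.32, 2.13, 6.01 and 6.71 to 8.89, 6.77, 13.7 and 17.1 CPM (log2 fold change 1.43, adjusted p 0.00480), as did Bhlhe41 (0.73), also a repressor. Hlf (-0.51), a clock output, and Per3 (-0.36), of the period family, fell, and with total counts the falls were 4. The hour of collection is not in the labels, so time of day cannot be told apart from age.

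Immediate early genes respond within minutes to stimulation or handling of tissue. Of 27 tested genes 7 rose, 0 fell and 20 did not pass (median 0.30). Nr4a3, an orphan nuclear receptor, was at 2.50, 3.10, 2.30 and 1.39 against 25.6, 15.4, 5.05 and 4.16 CPM (log2 fold change 2.43, adjusted p 6.71e-04), with replicates 1 and 2 highest at 20 weeks and no overlap (log2 fold change 1.81 without replicate 1). Arc, an activity-regulated gene, rose in the same pattern (log2 fold change 1.95, adjusted p 5.79e-04). Atf3 (1.31) and Maff (1.17), stress-responsive bZIP factors, rose, and Jund did not pass (log2 fold change 0.00, adjusted p 0.980). Rises were 12 without WT 20 weeks replicate 3. Of 28 genes of heat shock and the unfolded protein response 14 rose, 1 fell and 13 did not pass (median 0.34), so 53.6% changed, against 23% of all tested genes. Hsp90aa1, the inducible form of the chaperone HSP90, rose from 50.6, 75.5, 64.2 and 69.1 to 149, 164, 144 and 116 CPM (log2 fold change 1.14, adjusted p 7.22e-06), as did Hspb7, a small heat shock protein of muscle and the list's gene with most reads (log2 fold change 0.77, adjusted p 8.29e-04). Hsph1, a nucleotide exchange factor for HSP70 (1.21), and Hspb1, a small heat shock protein (0.76), rose. The fall of Dnajb1 (-0.32) ended without WT 4 weeks replicate 1. Of 29 tested antioxidant enzymes 14 rose, 0 fell and 15 did not pass (median 0.25). Cat, catalase, was at 171, 209, 242 and 219.5 against 319.9, 293, 399 and 320.2 CPM (log2 fold change 0.66, adjusted p 6.14e-04), without overlap, and Gstm1, a glutathione transferase, rose (log2 fold change 0.53, adjusted p 5.38e-05). Nqo1, a quinone reductase, rose (0.86), and Sod2, mitochondrial superoxide dismutase, did not pass (log2 fold change 0.11, adjusted p 0.351).

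Immune genes were counted in several lists, where over all tested genes 10.8% rose and 12.1% fell. Of 35 tested interferon-stimulated genes 1 rose, 9 fell and 25 did not pass (median -0.27). Gbp6, a guanylate-binding protein, rose from 0.371, 1.55, 0.403 and 0.953 to 2.19, 2.17, 2.54 and 2.64 CPM (log2 fold change 1.53, adjusted p 0.00194), while Gbp3 (-0.69) and Rsad2, viperin (-0.68), fell. Of 18 genes of class I antigen presentation 9 rose, 0 fell and 9 did not pass (median 0.31). H2-Q6 was at 1.58, 0.670, 1.29 and 1.35 against 3.72, 5.24, 3.65 and 7.12 CPM (log2 fold change 2.02, adjusted p 2.01e-04) and H2-Q7 rose as well (1.43), though the H2-Q genes are near-identical and their reads may be exchanged. Psmb9, a subunit of the immunoproteasome, rose (log2 fold change 0.59, adjusted p 0.0100). Rises became 5 without WT 4 weeks replicate 2 or WT 20 weeks replicates 2 or 4, and 5 with total counts. Of 7 tested genes of class II presentation 0 rose, 0 fell and 7 did not pass (median -0.15), among them Cd74, the invariant chain (log2 fold change -0.27, adjusted p 0.438). Of 20 tested complement and acute phase genes 4 rose, 2 fell and 14 did not pass (median 0.07). Clu, clusterin, rose from 135, 239, 212 and 240.1 to 494, 442, 618 and 415 CPM (log2 fold change 1.25, adjusted p 3.03e-05), and the complement components C4b (1.22) and C3 (0.96) rose. Ifi30, a lysosomal thiol reductase, fell (-0.51), and the falls became 1 without WT 4 weeks replicates 1 or 4 or WT 20 weeks replicates 2 or 3.

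Cardiac transcription factors set the identity of the myocyte. Of 29 tested 0 rose, 3 fell and 26 did not pass (median -0.06), against 10.8% rising and 12.1% falling over all tested genes. Nfatc4, a factor activated by calcineurin, fell (log2 fold change -0.49, adjusted p 0.00121), and Tead1, the list's gene with most reads, did not pass (log2 fold change 0.04, adjusted p 0.831). The falls became 1 without WT 4 weeks replicates 2 or 3 or WT 20 weeks replicate 1 and 6 with total counts, and Hand1 had no count in WT mice. Of 28 tested genes of adrenergic and peptide receptors and G proteins 3 rose, 4 fell and 21 did not pass (median -0.11). Adra1a rose from 23.2, 32.7, 24.6 and 29.0 to 42.4, 36.2, 39.6 and 38.0 CPM (log2 fold change 0.51, adjusted p 0.00937) while Adra1b, the other main alpha-1 adrenergic receptor, fell from 56.2, 57.3, 58.9 and 48.5 to 37.4, 34.7, 48.3 and 40.7 CPM (log2 fold change -0.46, adjusted p 0.0101). Npr1, a natriuretic peptide receptor, fell (-0.51), and Grk5, a receptor kinase, rose (0.40). Of 54 tested genes of Wnt, Notch, BMP and TGF-beta signalling and of further growth factors (such as Vegfa) and their receptors 2 rose, 10 fell and 42 did not pass (median -0.20). Here 22.2% were past the test. Gdf15, a stress-induced hormone, rose from 0.417, 1.38, 0.968 and 1.19 to 9.90, 13.2, 3.57 and 3.20 CPM (log2 fold change 2.88, adjusted p 8.15e-04), with 20-week replicates 1 and 2 highest. Aplnr, the apelin receptor of endothelium, fell from 158, 142, 169 and 149 to 73.9, 70.8, 53.8 and 81.5 CPM (log2 fold change -1.14, adjusted p 3.84e-07), as did Notch2 (-0.61) and Sfrp2, a secreted Wnt modulator (-1.23), and Vegfa, the endothelial growth factor and the list's gene with most reads, did not pass (log2 fold change 0.37, adjusted p 0.102). Inhba, a subunit of activin, rose (0.92).

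Cell type markers were read as lists, with their summed level in each mouse, and their part in the results was not tested. Each marker count stands against 10.8% rising and 12.1% falling over all tested genes. Of 12 cardiomyocyte markers 1 rose, 0 fell and 11 did not pass (median 0.16), that rise being Myl2, and the sum was 90771, 115502, 121496 and 113374 against 117243, 115272, 121637 and 103849.6 CPM. Myh6 had most reads. The fibroblast markers, counted above beside the matrix genes, were lower in sum in every 20-week mouse, with most reads in Gsn, gelsolin. The list shares Col1a1, Col1a2, Col3a1, Dcn, Lum, Mfap5 and Lamb1 with the matrix lists. It also holds Pdgfra (-0.55) and Tcf21 (-0.59, a call that ended without WT 4 weeks replicate 1), which define the lineage. Of 16 endothelial markers 1 rose, 6 fell and 9 did not pass (median -0.27), and the sum was 4578, 3161, 3025 and 3090.1 against 2846, 2896, 2439 and 2861 CPM, with most reads in Aqp1. Cdh5, the junctional cadherin of endothelium, fell from 489, 414, 418 and 401 to 272, 282, 263 and 323 CPM (log2 fold change -0.59, adjusted p 3.03e-05), with Tie1 (-0.50) and the transcription factor Erg (-0.49). The call of Aqp1 (-0.59) ended without WT 4 weeks replicate 1. The rise of Kdr, the main receptor of vascular endothelial growth factor (0.24), ended without WT 4 weeks replicates 1, 2 or 4 or WT 20 weeks replicates 1, 2 or 4 or with total counts or no filter or from the WT mice alone. Of 6 tested markers of lymphatic endothelium 0 rose, 0 fell and 6 did not pass (median 0.03), with sums of 214, 182, 184 and 161 against 195, 220.4, 199 and 195 CPM and most reads in Prox1.

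Of 9 pericyte markers 0 rose, 5 fell and 4 did not pass (median -0.28), with sums of 1540.0, 1750.3, 2172 and 1997 against 1700.2, 1676, 1551 and 1830.1 CPM and most reads in Rgs5. Vtn, vitronectin (-0.54), and Pdgfrb (-0.41), the receptor of the lineage, fell, and the falls became 3 without WT 4 weeks replicates 3 or 4 or WT 20 weeks replicates 1 or 3. Of 9 smooth muscle markers 1 rose, 3 fell and 5 did not pass (median -0.04), with sums of 1081, 893, 1197 and 1128 against 769, 1056, 770.0 and 829 CPM and most reads in Acta2. The rise, of Synpo2 (0.35), ended without WT 4 weeks replicates 1, 2 or 4 or WT 20 weeks replicates 1, 2 or 3 or from the WT mice alone. The falls became 1 without WT 20 weeks replicate 3. Of 14 macrophage markers 0 rose, 4 fell and 10 did not pass (median -0.30), so 28.6% were past the test, against 23% of all tested genes. Their sum was 997, 717, 641 and 722 against 636, 534, 511 and 623 CPM, with most reads in Lyz2 and the ages apart. Cx3cr1, the fractalkine receptor of resident macrophages, fell from 38.0, 22.2, 28.5 and 25.5 to 10.6, 8.98, 10.6 and 15.05 CPM (log2 fold change -1.33, adjusted p 3.27e-05), and so did Csf1r, the receptor macrophages need for survival (log2 fold change -0.92, adjusted p 4.98e-05). Adgre1, known as F4/80 (-0.80), and Mrc1, the mannose receptor (-0.55), fell too, and Lyz2, lysozyme, did not pass (log2 fold change -0.25, adjusted p 0.375).

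Markers of white blood cells had low sums, and those of erythroid cells are given last. These lists left few members to test, and over all tested genes 10.8% rose and 12.1% fell. Of 5 tested of 10 monocyte and neutrophil markers 2 rose, 0 fell and 3 did not pass (median 0.43), with sums of 11.0, 4.19, 6.29 and 6.87 against 10.8, 5.11, 4.19 and 6.56 CPM and most reads in Ccr2. The rises, of the calgranulins S100a8 and S100a9, became 0 without WT 4 weeks replicates 2 or 3 or WT 20 weeks replicate 1 and 1 without WT 4 weeks replicates 1 or 4. Of 7 tested of 12 T and NK cell markers 0 rose, 0 fell and 7 did not pass (median -0.09), with sums of 4.63, 4.69, 3.83 and 4.53 against 4.731, 4.85, 3.24 and 6.52 CPM and most reads in Cd4. Of 8 tested of 9 B cell markers 0 rose, 1 fell and 7 did not pass (median 0.57), with sums of 23.1, 16.995, 17.9 and 22.4 against 13.1, 9.88, 12.5 and 17.2 CPM and most reads in Ighm. Ighm, the heavy chain of immunoglobulin M, was the gene that fell (log2 fold change -0.83, adjusted p 0.00121). Thymocyte markers left 1 to test of 7: 0 rose, 1 fell and 0 did not pass (median -0.67), this being Cd1d1, which other cells also express. Thymocyte sums were 5.05, 4.02, 4.07 and 4.49 against 2.76, 3.15, 2.34 and 2.44 CPM, and the recombinase genes Rag1 and Rag2 were at most 0.0438 and 0.0806 CPM. Mast cell markers left 3 of 6, of which 0 rose, 1 fell and 2 did not pass (median -0.58), with sums of 17.8, 16.3, 16.3 and 15.1 against 10.4, 11.4, 5.87 and 7.76 CPM. Kit, a growth factor receptor that is not restricted to mast cells, fell (log2 fold change -0.93, adjusted p 4.82e-04) and had most reads, and the mast cell proteases Cpa3 and Cma1 were at most 0.360 and 0.712 CPM. Of 5 tested of 8 erythroid markers 0 rose, 0 fell and 5 did not pass (median -0.31), with sums of 984, 762, 769 and 860.1 against 646, 768, 524 and 822 CPM, with most reads in the globin Hbb-bs.

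Further small lists follow, to be set against 10.8% rising and 12.1% falling over all tested genes. Of 8 tested of 9 Schwann cell markers 1 rose, 2 fell and 5 did not pass (median -0.36), with sums of 163, 170.4, 163 and 172 against 250.1, 249.5, 207 and 234 CPM. That sum is mostly Prnp, the prion protein, which other cells express too and which rose from 115, 141, 132 and 135 to 228, 222, 184 and 197 CPM (log2 fold change 0.67, adjusted p 9.77e-05). The fall of Sox10 ended without WT 4 weeks replicate 1 or WT 20 weeks replicates 1 or 3 or from the WT mice alone. The fall of Gfra3 ended without WT 4 weeks replicates 1, 2, 3 or 4 or WT 20 weeks replicates 1 or 3 or with RLE scaling or from the WT mice alone. Of 6 tested of 10 mesothelial markers 1 rose, 1 fell and 4 did not pass (median -0.54), with sums of 31.6, 21.2, 25.3 and 19.3 against 22.999, 22.2, 18.8 and 21.2 CPM and most reads in Wt1. The rise, of Krt18, ended without WT 20 weeks replicate 3 or with limma-voom. Of 9 tested of 10 adipocyte markers 1 rose, 0 fell and 8 did not pass (median 0.48), with sums of 1099, 992, 878 and 1122 against 1202, 1047, 1107 and 1234 CPM and most reads in Fabp4. Cidea, a lipid droplet protein, rose (log2 fold change 0.71, adjusted p 0.00325).

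For neighboring muscle and organs, 6 atrial cardiomyocyte markers were tested and 0 rose, 0 fell and 6 did not pass (median 0.21), with sums of 201, 502, 391 and 366 against 246, 792, 520.0 and 228 CPM and most reads in Nppa. Of 7 tested markers of the conduction system 0 rose, 3 fell and 4 did not pass (median -0.45), with sums of 124, 133, 90.0 and 80.4 against 70.6, 73.4, 88.8 and 80.4 CPM and most reads in Tbx3. The share that fell over all tested genes was 12.1%. Hcn4, the main pacemaker channel, fell from 31.0, 43.3, 28.3 and 23.8 to 16.03, 15.2, 23.8 and 14.5 CPM (log2 fold change -0.86, adjusted p 0.00710). Skeletal muscle markers left 7 of 12 to test, of which 0 rose, 1 fell and 6 did not pass (median 0.01). Their sums were 25.8, 113, 92.7 and 82.3 against 108, 86.5, 97.04 and 65.9 CPM, lowest in WT 4 weeks replicate 1, with most reads in Mybpc2. Lung markers left 1 of 5, Ager, of which 0 rose, 0 fell and 1 did not pass (median -0.68), with sums of 0.788, 0.209, 0.645 and 0.278 against 0.307, 0.255, 0.164 and 0.440 CPM.

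Long noncoding RNAs changed at low levels for the most part. By the study's methods pairs were counted on the same strand, and how far this parts the reads of an antisense transcript from those of the gene it overlaps was not tested. Of those annotated as lincRNA, Gm28979 was at 10.6, 8.41, 9.84 and 8.82 against 2.41, 3.11, 2.26 and 3.08 CPM (log2 fold change -1.79, adjusted p 2.17e-07) and Gm40457 at 1.11, 1.34, 3.39 and 3.22 against 12.7, 11.8, 7.22 and 7.004 CPM (log2 fold change 2.08, adjusted p 1.41e-04). The ages did not overlap in either. A730036I17Rik rose too (2.45), from below 1 CPM in every 4-week mouse. The call of Gm31659 (-1.25) ended without WT 4 weeks replicate 1. Among antisense transcripts Gm20400 rose, at 0.695, 1.76, 1.29 and 0.715 against 3.81, 3.41, 23.8 and 11.8 CPM (log2 fold change 3.25, adjusted p 1.81e-04), with a wide spread at 20 weeks and a log2 fold change of 2.50 without WT 20 weeks replicate 3, and Uckl1os fell (log2 fold change -2.01, adjusted p 6.34e-05).

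The age effect was also estimated in the 8 Gαq mice by the same fit, with the same threshold. The Gαq mice carry title numbers that WT mice of their age also carry, so the age effects of the genotypes are not independent of it. In Gαq 3698 genes differed between 20 and 4 weeks, 22% of those tested (1867 higher, 1831 lower). Both genotypes called 2098 genes, 54.4% of the WT calls and 56.7% of the Gαq calls, with 2087 of them moving alike and 11 moving oppositely. The interaction of age with genotype passed for 35 genes, 0.209% of those tested, 16 with a higher and 19 with a lower log2 fold change in Gαq, and 16 of the 35 were called in WT. The count depends on the method: it was 193 with DESeq2, 234 with all genes that had at least 1 count and 19 with limma-voom. It was 67 without WT 20 weeks replicate 1, 20 without replicate 3 and 19 without replicate 4 of that group. Lman1l rose in both (log2 fold changes 4.09 in WT and 1.90 in Gαq, interaction adjusted p 0.0111), but its interaction did not pass with limma-voom (adjusted p 0.0774). Myh7 differed less with age in WT (0.38) than in Gαq (1.95, interaction adjusted p 0.0107). Gpr22, an orphan receptor of the heart, did not pass in WT (0.35) and fell in Gαq (-1.69, interaction adjusted p 0.00233). Tdp1, a DNA repair phosphodiesterase, did not pass in WT (-0.05) and rose in Gαq (1.30, interaction adjusted p 0.00232). Trim47, a ubiquitin ligase, fell in WT (-0.36, a call that ended without WT 4 weeks replicate 1 or WT 20 weeks replicate 4) and rose in Gαq (0.67, interaction adjusted p 0.00740). The leading WT changes were of similar sign in Gαq, with log2 fold changes of 3.24 for Cpxm2, 3.28 for Myot, -6.15 for Lrat, -2.19 for Adamts12 and -1.48 for Col3a1.

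Each age group holds 4 mice, all of a single strain, so the values describe these animals, and age cannot be told apart from date of collection. RNA levels do not give protein levels, and transcripts encoded in the mitochondrial genome were not counted.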

How the data were processed

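Poly(A)-selected NEBNext libraries of left ventricular RNA were sequenced as 100-bp paired-end reads, aligned to mm10 with STAR 2.6.0c and summarized per Ensembl gene with featureCounts (Subread 1.6.2) by the authors, whose deposited table of raw counts per gene was used for every test. The authors also deposited log2-scale values from the variance-stabilizing transformation of DESeq2 1.23.10, per the submitters' processing notes, used here for principal components alone. Mice were grouped by the labels.

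Genes kept by filterByExpr were fitted over all 16 mice, with a coefficient for each of the 4 groups, in edgeR 4.0.16 (R 4.3.3, TMM factors, quasi-likelihood F test) and adjusted by Benjamini-Hochberg, and tables were made in Python 3.11.15. The contrasts were 20 against 4 weeks in WT, the same in Gαq, and their interaction. Alternatives were DESeq2 1.42.0, limma-voom (limma 3.58.1) with and without the number in the sample title as a random block, RLE and total-count scaling, other filters, the WT mice alone, and each WT mouse left out. Named genes are among the leading rises and falls by log2 fold change and adjusted p, and the leading and most-read members of 42 process lists (1239 distinct genes, 19 of them on more than 1 list) and 21 marker lists (198 genes), with a few further members named for their role. The members and lists were chosen with earlier results of these data known. Only nuclear-encoded genes were counted on the lists. Gene positions are those of GENCODE vM21.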

Additional observations from a re-analysis of the deposited data

Results flagged for a closer look

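In each group of 4 WT mice, the gap between the most extreme mouse and its neighbor was divided by the range of the group. This was done for each named gene, each list sum, the total counts, the TMM factors and the PC1 scores. Of 666 such groups 47 had a ratio above Dixon's 95% critical value for 4 samples, where chance alone gives about 1 in 20, or 33.3. WT 4 weeks replicate 1 was the extreme mouse in 22 of them, WT 20 weeks replicate 3 in 10, WT 20 weeks replicate 4 in 6, WT 20 weeks replicates 1 and 2 in 4 each and WT 4 weeks replicate 4 in 1. The ratio of Igf2bp3, with 1 count in a mouse and 0 in the other 3, is fixed by the zeros. Values below are CPM, given against the range of the other 3 mice of the group.

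Among 4-week WT mice, replicate 1 was highest in Gsn (3492 against 1884 to 2106), Eln (353 against 188 to 208), C3 (132 against 60.8 to 63.6), Csf1r (140.0 against 98.4 to 105), Npr1 (75.9 against 48.9 to 51.0), Col4a4 (56.2 against 39.3 to 40.4) and Aqp4 (46.9 against 24.6 to 27.6). That mouse was also highest in Col4a3 (23.1 against 14.9 to 16.2), Gm31659 (28.5 against 9.03 to 12.2), Igf2 (22.9 against 5.04 to 7.19), Gfra3 (4.03 against 2.46 to 2.68), Mmp9 (2.18 against 1.05 to 1.17) and the sum of the endothelial list (4578 against 3025 to 3161). The same mouse was lowest in Lpl (2992 against 4258 to 4334), Ankrd1 (279.6 against 1193 to 1237), Idh2 (984 against 1209.7 to 1226), Lmod2 (432 against 635 to 652), Sod2 (578 against 715 to 742), Ugp2 (209.5 against 346 to 363) and Suclg2 (99.4 against 140.5 to 142). That mouse was also lowest in the sum of the complex II list (3025 against 3476 to 3561) and the sum of the citric acid cycle and pyruvate oxidation list (19092 against 22442 to 22743). Among 4-week WT mice, replicate 4 was highest in S100a1 (490.2 against 373 to 386).

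Among 20-week WT mice, replicate 1 was highest in Cdh4 (17.9 against 14.0 to 14.3) and Igf2bp3 (0.0438 against 0). The same mouse was lowest in Inhba (8.98 against 12.9 to 13.4) and Lig1 (4.82 against 6.08 to 6.17). Among 20-week WT mice, replicate 2 was highest in Mmp14 (25.1 against 21.2 to 21.5), Angptl7 (4.68 against 2.45 to 2.56), the sum of the adrenergic and peptide receptors and G proteins list (4363 against 3892 to 3945) and the sum of the lymphatic endothelial list (220.4 against 195 to 199). Among 20-week WT mice, replicate 3 was highest in Grk5 (80.8 against 56.5 to 60.4), Hcn4 (23.8 against 14.5 to 16.03), Cidea (38.8 against 25.2 to 27.5), Myl4 (44.97 against 2.04 to 7.19), Myl7 (31.2 against 0.280 to 3.75) and the sum of the antioxidant enzymes list (4407 against 4235 to 4257). The same mouse was lowest in Timp3 (276 against 336 to 344), Ckb (39.3 against 42.7 to 43.4), Ifi30 (10.9 against 12.6 to 12.7) and the sum of the endothelial list (2439 against 2846 to 2896). Among 20-week WT mice, replicate 4 was highest in Pdgfrb (141 against 113 to 117), Psmb9 (13.2 against 8.41 to 8.90) and 2210407C18Rik (0.841 against 0.263 to 0.298). The same mouse was lowest in Suclg2 (159.9 against 172 to 175), the sum of the complex I list (12662 against 13281 to 13396) and the sum of the citric acid cycle and pyruvate oxidation list (21486 against 23946 to 24060.0).

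The age effect differed between genotypes (interaction in edgeR, adjusted p under 0.05) for Myh7 (1.57), Gpr22 (-2.03), Trim47 (1.04), Tnnt1 (1.03), Tdp1 (1.35) and Lman1l (-2.19). Values are the log2 age effect in Gαq minus that in WT.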

How the results depend on the processing

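The count of genes that differed with age in WT mice, 3857, was 4141 with DESeq2 (2081 rises, 2060 falls), 3743 with limma-voom, 3677 with the title number as a random block, 3841 with RLE scaling, 3971 with total counts in place of TMM, 3598 with all genes that had at least 1 count, 3839 with a filter of 1 CPM in 4 mice and 3083 from the WT mice alone. Over the left-out WT mice it ran from 2882 (without WT 4 weeks replicate 1) to 3742 (without WT 4 weeks replicate 4). All of these lie within 1.5 times the count from edgeR. The balance of directions depends on scaling: 47.2% of the calls were rises with TMM, 1820 against 2037 falls, and 33.2% with total counts, 1317 against 2654, where the median log2 fold change of all tested genes was -0.07. List medians near 0 changed sign in places: with total counts those of calcium handling, complexes III, IV and V, the phosphocreatine system, complement, lymphatic endothelium and skeletal muscle, with RLE and DESeq2 those of the immature or stressed ventricle and of hormone receptors, and with DESeq2 also those of T and NK cells and skeletal muscle. Without WT 4 weeks replicate 1 those of matrix proteases, the immature or stressed ventricle, calcium handling, complex III, the phosphocreatine system, hormone receptors, class II presentation, T and NK cells and skeletal muscle did so.

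The interaction of age with genotype depends on the method. Its 35 genes were 193 with DESeq2, 234 with all genes that had at least 1 count, 19 with limma-voom and 19 with the title number as a random block. Over the left-out WT mice they ran from 19 (without WT 20 weeks replicate 4) to 67 (without WT 20 weeks replicate 1), with 20 without WT 20 weeks replicate 3. The cause was not tested.

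Of 267 genes of the text 216 were past the test, and 186 of these passed in each of 16 alternatives. Of the 30 that lost the call in at least 1 of them, 23 lost it without WT 4 weeks replicate 1, 14 without replicate 2, 7 without replicate 3 and 10 without replicate 4 of that group, and 15, 12, 19 and 10 without WT 20 weeks replicates 1 to 4. The call was lost by 16 from the WT mice alone, 8 with the title number as a random block, 7 with limma-voom, 3 with RLE, 3 with all genes that had at least 1 count, 2 with total counts and 1 with DESeq2. For 18 genes past the test the fold moved by over 1.5 times in at least 1 alternative. Those that rose were Kcnc1, Ano5, Pde11a, Aqp8, Vgll2, Nr4a3, Gm20400, A730036I17Rik, Mt2, S100a8 and S100a9. Those that fell were Lrat, Igf2bp3, Col26a1, 2210407C18Rik, Krt19, Kif2c and Igf2. A further 6 genes passed in some alternative only, and the number of named genes past the test with a reversed direction was 0. List counts of 0 or 1 that moved by 1 or 2 when a mouse was left out are mostly not listed. No paired analysis was possible because WT mice of different age share no title number and the labels link no mouse at 4 weeks to a mouse at 20 weeks.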
